A study of Mus musculus with 16 samples.

Results

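The genes described here were those most reproducibly higher in NELF-B KO than in WT bone-marrow-derived macrophages (BMDM) after acute activation, outside the set of LPS-induced, Dex-repressed genes that the study defined. They numbered 100 of the 9614 genes in the expression table. For each gene, KO minus WT on the log2 CPM scale (CPM, counts scaled to a common library size) was taken in 3 pairs of mice under LPS and in the same 3 pairs under LPS+Dex, and the smallest of these 6 differences was the score. Genes with a mean KO level under a log2 CPM of 1, genes of the study's repressed set and genes whose symbols start with Zfp, Slc or Hsp were left out, and the 100 highest scores among the 9041 remaining genes were kept. These genes were therefore chosen by their log2 CPM differences, for being higher in KO under LPS and under LPS+Dex, and their values in those comparisons are given as a description without a test.

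NELF-B is a subunit of the negative elongation factor, a complex that holds RNA polymerase 2 shortly downstream of the start site of many genes until kinase signaling releases it into productive elongation. Immediate-early genes, which respond to growth factors or LPS within minutes without new protein synthesis, are a classical setting for this paused polymerase. Dexamethasone (Dex), a synthetic glucocorticoid, activates the glucocorticoid receptor, which raises transcription of some genes in macrophages and represses many inflammatory ones.

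RNA-seq of polyA RNA covered 16 libraries of BMDM from C57BL/6 male mice of 8 weeks. WT mice were LysM-Cre:NELF-B wt/wt and KO mice LysM-Cre:NELF-B fl/fl, so both genotypes carried LysM-Cre, which drives Cre from the Lyz2 locus in myeloid cells, and in KO cells it removes the floxed exon 4 of Nelfb. There were untreated cells (2 mice per genotype), cells given LPS at 10 ng/ml for 1 hr (3 per genotype) and cells given that dose of LPS together with 100 nM Dex for 1 hr (3 per genotype). Mice bear the letters A, B and C in each genotype. Mice A and B gave 1 library per condition, and mouse C gave 1 under LPS and 1 under LPS+Dex, with no untreated library. The labels give a shared run string for both mice of pair B only, so what pairs WT A with KO A is known only from the selection rule.

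An estimated 25029253 to 49732927 reads per library fell on genes. Nelfb, the targeted gene, stood at a log2 CPM of 5.59 to 6.21 in the 8 WT libraries and 3.27 to 4.38 in the 8 KO libraries. Of 10 macrophage marker symbols 9 were among the genes used here, the other, Adgre1, being a newer symbol of Emr1, which was among them. The summed level of these 9 markers was 8460 to 14800 CPM over all libraries. The untreated library of WT mouse A stood apart. Its correlations across genes were 0.83 to 0.909 with the other libraries, against 0.924 to 0.993 among the others. All untreated differences of pair A and all LPS changes of WT A given below rest on it. The tests of the untreated and LPS comparisons include it unless stated. In bulk RNA, more cells of a kind and more RNA per cell cannot be told apart.

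The median member was 0.61 higher in KO on the log2 scale, averaged over the 6 differences, which is 1.53-fold, and 60 of the 100 members were over 1.5-fold and 13 over 2-fold higher. Of all genes, 14.9% had all 6 differences above 0, the share from which the members were drawn. The median difference was 0.54 in pair A, 0.56 in pair B and 0.64 in pair C under LPS, and 0.55, 0.62 and 0.66 under LPS+Dex. The pairs thus gave medians of similar size, while for 49 members the largest difference came from pair C, for 33 from pair B and for 18 from pair A. Every KO library was above every WT library for 76 members under LPS, where 5.91% of all genes met this, for 82 under LPS+Dex (8.93% of all genes) and for 72 under both (3.77%). Since the rule used these contrasts, these counts describe the choice. The members were not marked by their level, with a median log2 CPM in WT of 5.17 against 5.08 for all genes.

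**Figure D1:**
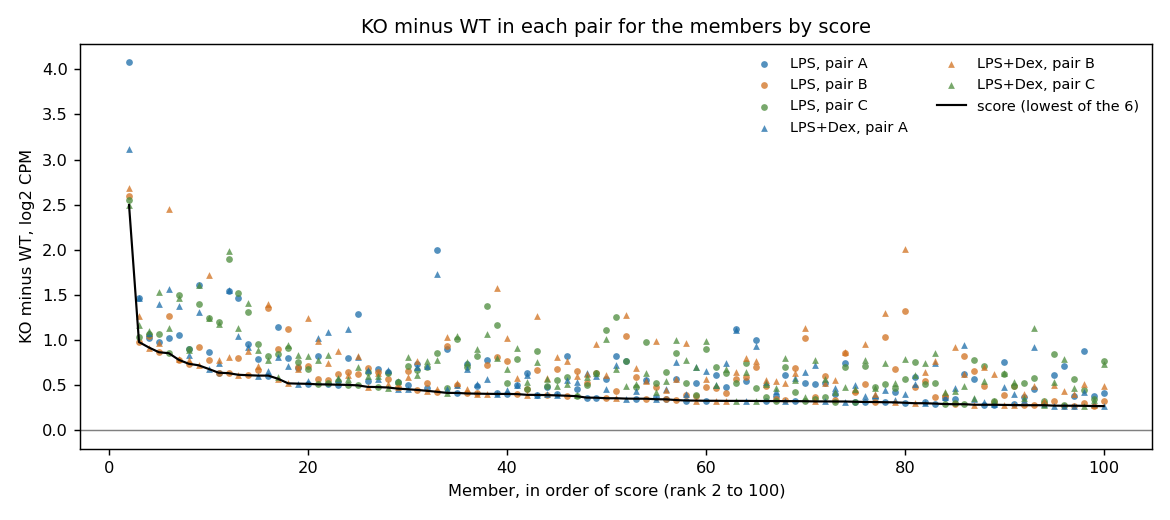
KO minus WT (log2 CPM, y axis) in pairs A, B and C under LPS (circles) and LPS+Dex (triangles) for the members of rank 2 to 100 by score (x axis), with the score as a black line. The rank 1 gene 4933433C11Rik, between 6.19 and 7.77, is off the scale, Arc follows at 2.50 or more, and the score falls from 0.98 for Lyz2 to 0.27 at rank 100.

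The score fell without a gap at the threshold. Just inside it lay Btd, which encodes the biotin-recycling enzyme biotinidase, at 0.27 and Fam20c, a secretory-pathway kinase, at 0.27, and just outside it Kctd12 and Pisd-ps1, also at 0.27 when rounded. Kctd12 had a mean of the 6 differences well above that of Btd, since its differences ran from 0.27 in pair B under LPS+Dex to 1.65 in pair A under LPS+Dex, whereas those of Btd ran from 0.27 to 0.38. A score set by the smallest difference favors even genes over large uneven ones. A further 42 genes had scores as high as the lowest member but were left out by name, 35 of them because they belong to the repressed set.

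The highest score belonged to 4933433C11Rik, listed as Stpg3 in the current annotation, a gene with little described function. It lies on chromosome 2 (GRCm38, chr2:25212207-25214637, minus strand) directly upstream of Nelfb (chr2:25199712-25211489, minus strand), with 717 bases between its 3′ end and the annotated start of Nelfb. Reads in the WT libraries numbered 1 and 0 untreated in mice A and B, 0, 0 and 1 under LPS in A, B and C and 0 in each under LPS+Dex. The KO libraries held 318 reads over both untreated mice, 101, 173 and 172 under LPS and 80, 221 and 102 under LPS+Dex. The gene was thus near the detection limit in every WT library and present in every KO library, with or without treatment. Scaled for depth, the KO to WT ratio was 224 untreated (95% counting interval 40 to 8886) and 437 under LPS (78.1 to 17303), and KO was at least 138-fold higher under LPS+Dex against a floor of 3 reads over the WT group. These intervals cover counting error only.

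4933433C11Rik was the only member within 10 Mb of Nelfb, a window that held 171 of all genes, and 10.1% of members against 8.04% of all genes with a position were on chromosome 2. The neighbor on the other side, Tor4a, differed by -0.23 to 0.20 between KO and WT over the 6 pairs, and Tubb4b, the next gene beyond 4933433C11Rik, by -1.13 to -0.10. A difference like that at 4933433C11Rik was thus not shared by the adjacent genes in the table. Tmem203, the next gene in the table after Tubb4b, was higher in KO in all 6 pairs, by 0.11 to 0.92. Tprn, Ssna1 and Anapc2 beyond it differed in both directions. Whether reads that run from 4933433C11Rik into the edited Nelfb gene contribute was not tested, since the values are counts per gene. KO mice carried the floxed Nelfb allele and WT mice did not. A local effect of that allele is therefore confounded with loss of NELF-B and was not tested.

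Arc, an activity-regulated immediate-early gene best known from neurons, where its protein forms capsid-like particles, had the next score. Its log2 CPM was -1.97 and -0.78 in untreated WT (A, B) and -1.38 and 0.10 in untreated KO, so the untreated genotypes overlapped at a level of 5 to 37 reads. Under LPS it was -0.29, 1.16 and 0.63 in WT (A, B, C) and 3.79, 3.76 and 3.19 in KO, and under LPS+Dex 0.71, 1.56 and 0.77 in WT and 3.83, 4.24 and 3.26 in KO. The KO libraries were clear of the WT ones under both treatments, by 8.45-fold on average under LPS and 6.81-fold under LPS+Dex. LPS raised Arc by 3.05 ± 0.55 (SE) over both genotypes (limma, FDR 0.0068 over all genes, FDR 0.0655 with mouse as a block), with changes of 1.69 and 1.94 in WT A and B and 5.17 and 3.66 in KO A and B.

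The other members among the 12 highest scores differed by about 2-fold. Lyz2, which encodes the lysozyme of macrophages, was 4.45, 4.97 and 5.30 in WT and 5.92, 5.94 and 6.33 in KO under LPS (A, B, C), and the untreated libraries were also apart, at 4.63 and 4.31 in WT and 5.42 and 5.38 in KO. Lyz2 is the locus that carries LysM-Cre, and its near copy Lyz1 can share reads with it, so this value is uncertain. The copies of the Cre allele per mouse are not given in the sources used here. Lyz1 itself, no member, stood at 5.95, 7.09 and 5.13 in WT and 5.77, 6.50 and 6.23 in KO under LPS, with no common direction over the pairs.

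H3f3b, 1 of the genes for the replication-independent histone H3.3, was close between mice of a genotype. Its log2 CPM under LPS was 9.23, 9.30 and 9.15 in WT and 10.26, 10.34 and 10.22 in KO, a 2.07-fold difference with a gap between the genotypes several times the spread within them. The untreated libraries were closer, at 9.11 and 8.69 in WT and 9.56 and 9.29 in KO. Hist1h1c, a linker histone gene, was 5.95, 6.82 and 5.69 in WT and 7.50, 7.45 and 7.59 in KO under LPS. KO levels of Hist1h1c were nearly equal in every condition, and the spread lay in WT.

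Rgs2, which encodes a GTPase-activating protein for Gq signaling, was 5.68, 5.07 and 5.89 in WT and 6.66, 5.94 and 6.96 in KO under LPS, and 5.01, 4.57 and 5.23 in WT and 6.42, 5.55 and 6.76 in KO under LPS+Dex. Mouse B was the lowest in both genotypes, so KO B lay near WT C under LPS while every pair differed by 0.87 or more. Arg1, which encodes the arginine-hydrolyzing enzyme arginase, showed the mice apart the other way, with mouse B highest in both genotypes. It was 1.84, 3.88 and 2.03 in WT and 2.87, 5.15 and 2.88 in KO under LPS, so WT B was above KO A and KO C.

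Thbs1, which encodes the matricellular protein thrombospondin, was 10.27, 11.04 and 9.73 in WT and 11.14, 11.81 and 10.97 in KO under LPS, with WT B above KO C. Glul, the glutamine synthetase gene, was 1.78-fold higher in KO under LPS and 1.87-fold under LPS+Dex. Dnajb9, an endoplasmic reticulum co-chaperone gene, differed by 1.80-fold and 1.79-fold, Bzrap1, which encodes a protein that binds the mitochondrial translocator protein, by 2.48-fold and 2.32-fold, and the unnamed transcript Gm11613 by 2.16-fold and 2.32-fold. For these genes the difference was of similar size with and without Dex.

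**Figure D2:**
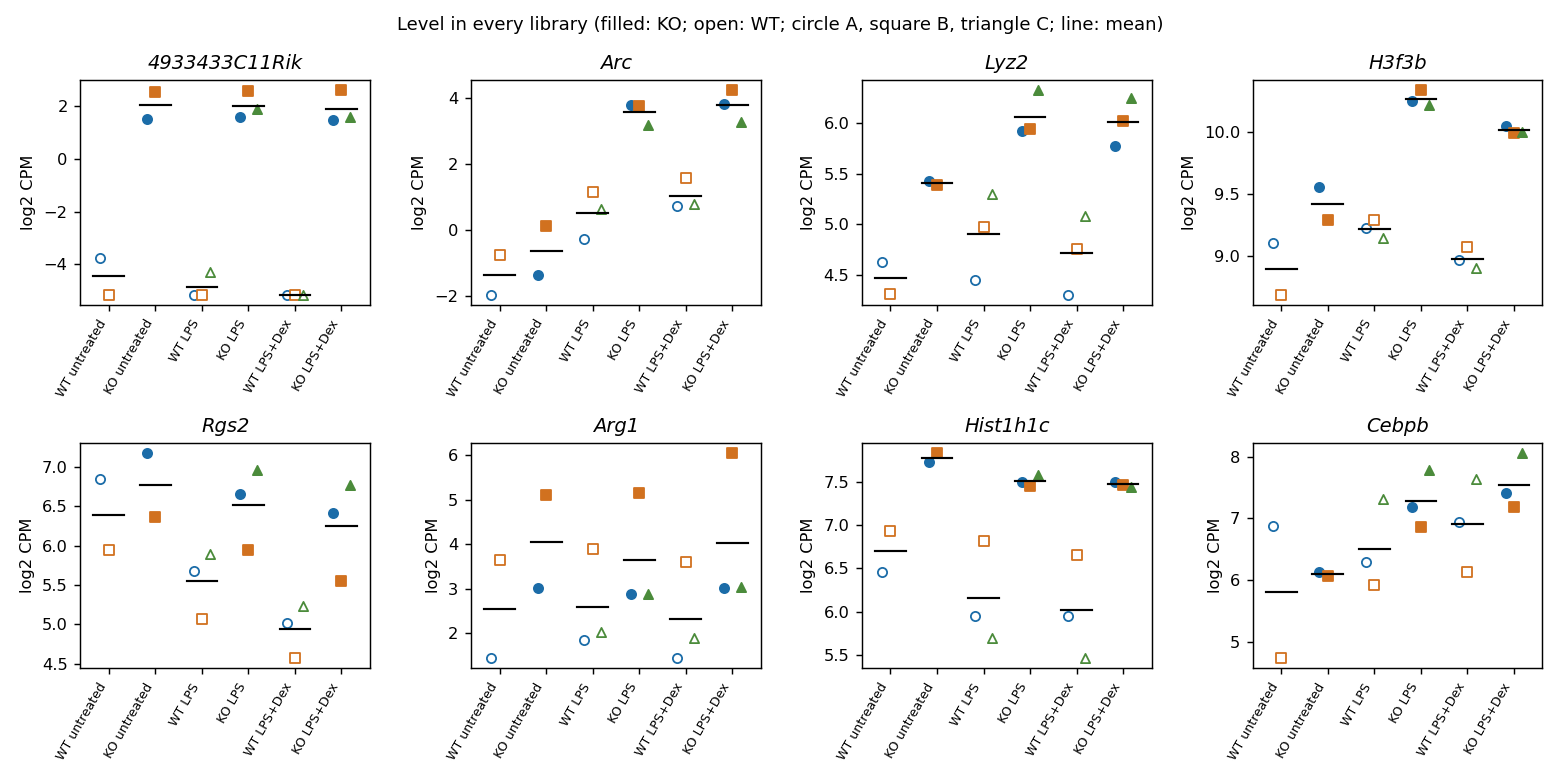
Log2 CPM in every library (y axis, own scale per panel) of 8 members by genotype and treatment, with open symbols for WT, filled symbols for KO, circles, squares and triangles for mice A, B and C, and a line at the group mean. KO levels of 4933433C11Rik lay between 1.48 and 2.62 in every condition while WT did not exceed -3.77. Arg1 and Cebpb overlap between genotypes, and Arc and Rgs2 do so in the untreated libraries.

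Members were next read against 17 gene lists, which 25 of the 100 members entered. Of 33 immediate-early transcription factor genes in the table, 5 were members and 12 were left out by the rule as genes of the repressed set. The median difference was 0.43 over the list and 0.41 without its members, against 0.01 over all genes, and 17 genes were higher and 3 lower in all 6 comparisons, where 14.9% of all genes were higher and 15% lower. The 5 members are among these 17 by the rule. They included Jun, Fosl2, Id3 and Id2. Jun and Fosl2, which encode AP-1 subunits, differed by 1.52-fold and 1.34-fold under LPS, and Id3, which encodes an inhibitor of basic helix-loop-helix factors, by 1.52-fold.

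Of 30 genes of growth factor and MAP kinase feedback, 3 were members (Rgs2, Rnd3, an atypical small GTPase gene that acts on the actin cytoskeleton, and 1 more) and 12 were left out by the rule, and the median was 0.30 over the list and 0.23 without its members. Of 14 oxidative stress and metal response genes 5 were members, the median was 0.25 with and 0.18 without them, and 8 were higher and 0 lower in all 6 comparisons (14.9% and 15% of all genes). The 5 members are among these 8 by the rule, so the count describes the choice in part. Among these members Gclc, the catalytic subunit gene of glutathione synthesis, was 1.39-fold higher in KO under LPS, Osgin1, which encodes an oxidative stress-induced growth inhibitor, 1.95-fold, and Mt1, a metal-binding metallothionein gene, 1.54-fold. Of 4 replication-dependent histone genes used here 2 were members, Hist1h1c and Hist1h2bc (1.43-fold under LPS). Histone genes of this cluster are near copies of each other whose reads can be split. The libraries were made from polyA RNA, so these values cover only polyA transcripts of these genes. The level of all their transcripts was not measured.

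The remaining lists held few members. The heat shock list had Dnajb1, an HSP40 co-chaperone gene (1.96-fold under LPS), with a list median of -0.03 and 10 of 23 genes left out by the rule. The integrated stress response list had Cebpb, a transcription factor of myeloid cells, and Ddit4, an inhibitor of mTORC1 signaling. Its median was 0.04 over the list and -0.13 without its members. Of its 15 genes, 3 were higher and 5 lower in all 6 comparisons (14.9% and 15% of all genes). The 2 members are among these 3 by the rule. The cell cycle list had Cdkn1b, the gene for the cyclin-dependent kinase inhibitor p27, which was 1.35-fold higher in KO under LPS, while the median over its 29 genes was -0.92 and 22 were lower in KO in all 6 comparisons (15% of all genes). Cdkn1b was thus opposite in direction to most genes of the list. The cytokine list had Ccl6, with 21 of 35 genes left out by the rule, the receptor list had Cd86, a T cell co-stimulatory ligand (1.54-fold under LPS), and the 264 unnamed transcripts had 4, Gm12942 (1.49-fold under LPS) among them. The NELF and elongation factor, NF-κB, p53, SRF target, interferon, cholesterol and small RNA host gene lists held no member.

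S100a8, a calcium-binding protein gene typical of neutrophils and monocytes, was also a member and is the only 1 of 9 neutrophil and granulocyte precursor markers among the genes used here, the defining markers Ly6g, Mpo and Elane having no row. Its level was 5.46 to 20.5 CPM in WT and 13.9 to 36.3 CPM in KO under LPS, and 7.84 to 24.2 and 20.6 to 41.5 under LPS+Dex. The ranges overlapped between genotypes while each pair differed. Of 6 dendritic cell markers 2 were among the genes used here, with sums of 9.48 to 25.1 CPM in WT and 6.74 to 19.5 CPM in KO under LPS. Itgax was lower in KO in all 8 pairs, by 0.11 to 1.53 on the log2 scale. The other, Ccr7, was lower in KO in 5 pairs and higher in 3, with KO minus WT from -1.02 to 0.93. The 5 stromal markers summed to 72.1 to 101 CPM in WT and 102 to 109 CPM in KO without treatment and to 118 to 148 and 133 to 181 CPM under LPS+Dex, and under LPS the highest sum was 134 CPM in WT and 153 CPM in KO, with overlap between genotypes in both treatments. By pair, the stromal genes Col1a2, Dcn and Sparc were each higher in KO in 7 of 8 pairs, Col3a1 in 6 and Col1a1 in 5. The part of these cell types in the members' differences was not tested.

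The untreated libraries were not used by the rule, but they came from mice A and B, whose treated libraries helped choose the members. Within a mouse, deviations from the group mean correlated at 0.185 to 0.822 between untreated and LPS libraries. The untreated differences are therefore not independent of the choice, and part of them can follow from it. The members were higher in untreated KO by a median of 0.42, against 0.02 for all genes, and 83 of 100 had a positive mean difference. In pair B, 98 of 100 members were higher in KO, where 51.4% of all genes were, with a median of 0.42, and 26 were over 1.5-fold higher (1.55% of all genes). In pair A, 73 were higher (50.7% of all genes), with a median of 0.49, 45 were over 1.5-fold higher (24.6% of all genes) and 13 over 1.5-fold lower, and 72 were higher in both pairs (24.8% of all genes). The untreated genotypes did not overlap, with KO higher, for 49 members (15.7% of all genes) and, with KO lower, for 1 member, Itpkc (13.8%).

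With 2 mice per genotype no gene passed the test (limma, FDR under 0.05 and over 1.5-fold), neither among the members nor among all 9614 genes (0%), and 9 members were higher and 0 lower at an unadjusted p under 0.05, where 0.187% of all genes were higher and 0.198% lower. In simulated data of this comparison 0 of 200 genes changed by 2-fold were recovered, so the absence of calls says nothing about the members. With pair as a block 1 member, 4933433C11Rik, was called (0.0208% of all genes). The result depended on 1 library, since without untreated WT B, which leaves untreated WT A alone in its group, 33 members were called higher and 13 lower, beside 2006 and 1899 of all genes.

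Among members whose untreated genotypes did not overlap, those with the largest changes after 4933433C11Rik were Thbs1, Cebpd and Hist1h1c. Thbs1 was 8.06 and 10.34 in untreated WT (A, B) and 10.37 and 10.86 in KO, so the difference came mainly from the low WT A. Cebpd, a transcription factor gene induced in inflammation, was 3.03 and 3.99 in WT and 4.71 and 4.93 in KO, a difference of 1.31 ± 0.41 (SE, limma, unadjusted p 0.0221, FDR 0.889). Hist1h1c was 6.46 and 6.93 in WT and 7.73 and 7.84 in KO, a difference of 1.09 ± 0.29 (limma, unadjusted p 0.0128, FDR 0.889). Here the KO mice were closer together (SD 0.07) than the WT mice (SD 0.33).

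The spread between the pairs followed gene size. Among other genes that span under 5000 bases the median KO minus WT in untreated pair A was -0.78 and 17.0% were higher in KO, while among those of 50000 bases or more it was 0.55 and 77.0% were higher. In pair B the same classes had medians of 0.08 and -0.03. Relative to KO A, untreated WT A thus held more reads on short genes, and the part of this in each member's difference was not tested. Against these medians, the 27 members under 5000 bases had a median of 0.08 in pair A and 0.57 in pair B, and the 16 members of 50000 bases or more had 0.92 and 0.34. In each of the 4 classes of span used, and in both pairs, the members' median lay above that of the other genes. Of the 27 members lower in KO in pair A, 26 were higher in pair B. Mt1 was an example, at 9.28 and 6.82 in untreated WT (A, B) and 7.75 and 7.41 in KO, and Cebpb another, at 6.87 and 4.74 in WT and 6.13 and 6.07 in KO.

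**Figure D3:**
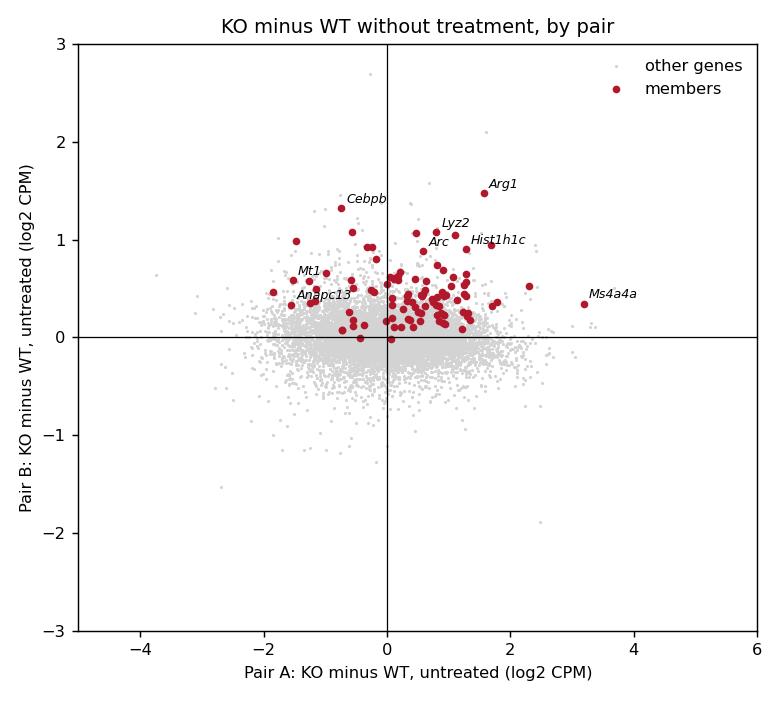
KO minus WT in untreated BMDM (log2 CPM) in pair A (x axis) and pair B (y axis), with members in red and other genes in grey. Members lay above 0 in pair B for 98 of 100 genes and spread to both sides in pair A, and 4933433C11Rik and the gene Erdr1, no member, are outside the plotted range.

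The response to LPS, averaged over genotypes, was tested in the untreated and LPS libraries. Of the members, 16 rose (3.64% of all genes did) and 3 fell (1.61% of all genes), at FDR under 0.05 and over 1.5-fold by limma. Genes that rose with LPS and fell with Dex were largely removed by the rule, so these counts do not describe all genes higher without NELF-B. With mouse as a block 12 rose (3.52% of all genes) and 1 fell (1.22%), and with that block and without untreated WT A, a setting chosen after seeing the data, 23 rose (4.32%) and 5 fell (2.32%).

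The largest rise was that of Sdc4, which encodes the heparan sulfate proteoglycan syndecan-4. Its log2 CPM was 7.18 and 6.69 in untreated WT (A, B) and 7.16 and 6.85 in untreated KO, 10.42, 10.35 and 10.19 in WT under LPS (A, B, C) and 10.88, 11.005 and 10.56 in KO. Every LPS library was over 3 log2 units above every untreated library, and the change was 3.60 ± 0.15 (SE, FDR 1.76e-07). Untreated levels of Sdc4 overlapped between the genotypes and LPS levels did not. Rnd3 rose by 2.53 ± 0.17 (FDR 5.46e-06), Itpkc, which encodes a kinase of inositol trisphosphate, by 2.32 ± 0.21 (FDR 5.14e-05) and Jun by 2.14 ± 0.17 (FDR 2.24e-05).

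The rise was seen in each of the 4 mice with both libraries for the genes named here. Jun changed by 1.77 and 2.03 in WT A and B and by 2.48 and 1.82 in KO A and B. Id3 rose by 1.16 ± 0.22 (FDR 0.00873, FDR 0.121 with the block), by only 0.11 in WT A. Of the other members that rose, Fosl2, Nfil3 and Dnajb9 changed by 1.42, 1.15 and 0.61. Nfil3 (FDR 0.0553) and Dnajb9 (FDR 0.0755) did not pass with the block. Named after their values were seen, the 3 that fell were Osgin1 by 1.19 ± 0.26, Smad7, which encodes an inhibitory SMAD, by 0.85 ± 0.15 and Rsrp1 by 0.72 ± 0.14. Of these only Rsrp1 passed with the block (FDR 0.0231).

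Osgin1 fell less in KO than in WT in both mice with an untreated library. It was 5.82 and 5.49 in untreated WT (A, B) and 5.09 and 5.57 in untreated KO, then 3.77, 4.16 and 3.53 in WT under LPS and 4.55, 4.88 and 4.91 in KO. The genotype difference was present under LPS in each pair. Before LPS, KO minus WT was -0.73 in pair A and 0.08 in pair B, and the value of pair A rests on the untreated WT A library that stood apart. The difference in the LPS response was not tested, because the rule used the LPS libraries.

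The response to Dex given with LPS was tested in the LPS and LPS+Dex libraries, again over both genotypes. Of the members, 17 rose (1.54% of all genes did) and 3 fell (1.31% of all genes), at FDR under 0.05 and over 1.3-fold by limma. With mouse as a block, 22 rose (2.45% of all genes) and 5 fell (2.29%). The removal of the repressed set limited the members that could fall, and the LPS and Dex comparisons share the LPS libraries.

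Pfkfb3, which encodes the enzyme that makes the glycolytic activator fructose 2,6-bisphosphate, rose most. It was 6.77, 7.29 and 6.65 in WT and 7.07, 7.65 and 7.17 in KO under LPS (A, B, C) and 9.14, 9.80 and 9.06 in WT and 9.88, 10.57 and 9.92 in KO under LPS+Dex, a change of 2.63 ± 0.19 (SE, FDR 6.32e-06). Every LPS+Dex library was above every LPS library in both genotypes. Ddit4, a glucocorticoid-responsive gene in many tissues, was 0.12, 0.99 and 0.82 in WT and 0.59, 1.40 and 1.46 in KO under LPS and 1.78, 3.08 and 1.93 in WT and 2.53, 3.40 and 2.61 in KO under LPS+Dex, a change of 1.66 ± 0.27 (FDR 0.00359).

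Nfil3, which encodes a basic leucine zipper repressor, rose by 1.64 ± 0.12 (FDR 6.32e-06). The metallothionein genes rose too, Mt1 by 0.74 ± 0.14 (FDR 0.0118) and, named after its values were seen, Mt2 by 1.41 ± 0.15 (FDR 0.000114). Cdkn1b rose by 0.63 ± 0.08 (FDR 0.000351). Sdc4, Jun and Nfil3 also rose with LPS alone, and Dex added 0.52, 0.53 and 1.64 to LPS changes of 3.60, 2.14 and 1.15. These members were thus higher with LPS, higher again with LPS+Dex and higher in KO under both.

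The 3 members that fell with Dex, named after their values were seen, were Enc1, which encodes a Kelch-family protein, by 1.29 ± 0.12 (FDR 7.7e-05), Nr1d1, the gene of the circadian repressor REV-ERBα, by 1.03 ± 0.11 (FDR 0.00013) and Lfng, which encodes a glycosyltransferase that modifies Notch receptors, by 0.89 ± 0.11 (FDR 0.000504). None of these passed the LPS test as higher. Lfng was 5.02, 5.62 and 5.15 in WT and 6.48, 6.42 and 6.67 in KO under LPS, and 4.42, 4.77 and 4.43 in WT and 5.47, 5.38 and 5.57 in KO under LPS+Dex. KO with Dex thus stood within the range of WT without it. With the block Rgs2 (-0.44, FDR 4.29e-05) was among those that also fell, and Thbs1 (0.39, FDR 0.00391), Glul (0.47, FDR 8.36e-09) and Itpkc (0.52, FDR 1.85e-06) were among those that rose in addition.

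**Figure D4:**
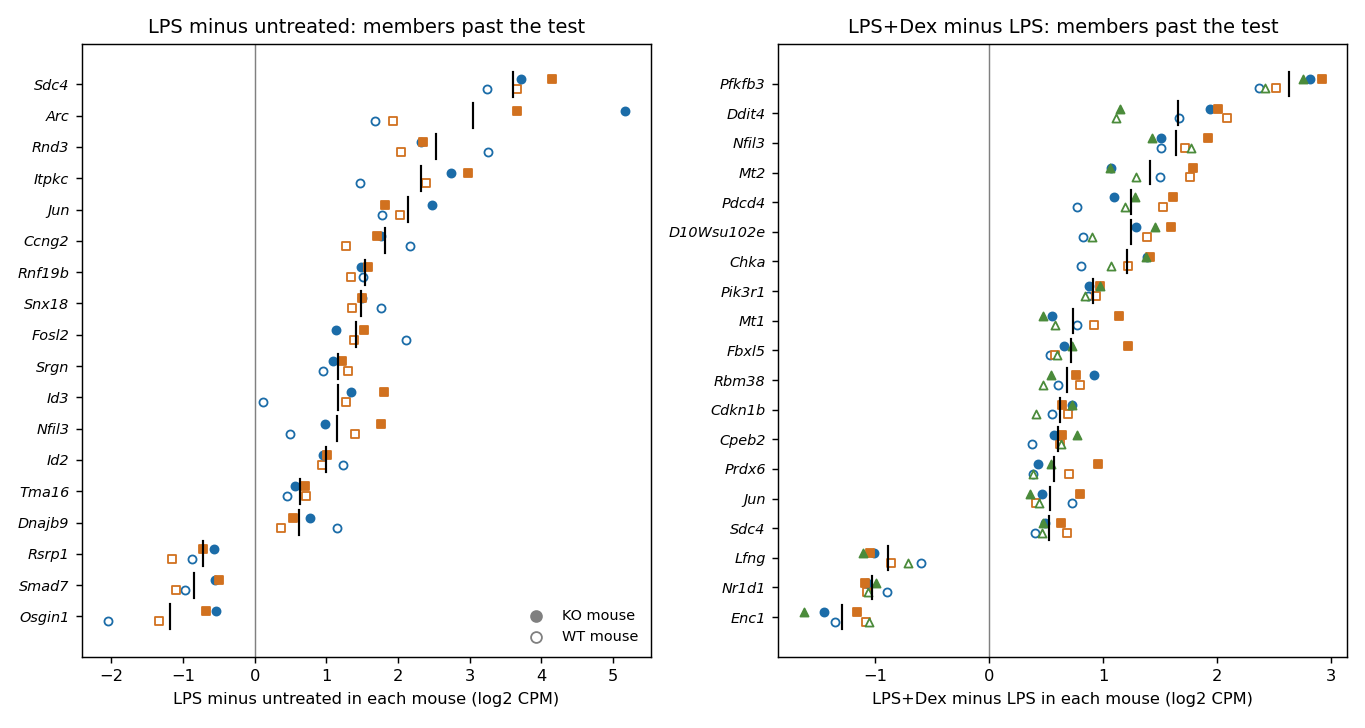
Change in log2 CPM in each mouse (x axis) for members past the test, leaving out 1 not reported here, LPS minus untreated on the left (mice A and B) and LPS+Dex minus LPS on the right (mice A, B and C), with open symbols for WT, filled symbols for KO and a black bar at the fitted change. All mice changed in the fitted direction for each of these members, from 3.60 for Sdc4 to -1.19 for Osgin1 with LPS and from 2.63 for Pfkfb3 to -1.29 for Enc1 with Dex.

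The difference between genotypes in the Dex change is built from the same 6 differences that chose the members, so it is given as a description and nothing is read from its test. The interaction of genotype and Dex passed FDR under 0.05 for 0 members and 0% of all genes (limma), with 0 members at an unadjusted p under 0.05 in either direction (0.052% and 0.0104% of all genes). With mouse as a block it passed for 0 members (0% of all genes with a higher and 0.0104% with a lower change in KO), and 14 members were higher and 6 lower in KO at an unadjusted p under 0.05 (4.6% and 2.36% of all genes). Pfkfb3 had the smallest FDR with the block among members, 0.0539, its Dex change being 2.37, 2.51 and 2.42 in WT A, B and C and 2.81, 2.91 and 2.75 in KO. The members' Dex changes had a median of 0.05, 0.01 and -0.003 in WT A, B and C and of 0.03, 0.12 and 0.01 in KO A, B and C, with members changing in both directions.

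The members tended to be compact genes, a property the rule did not use. Their median span was 12264 bases against 24492 for all genes with a position (99 members and 9556 genes, GRCm38), their longest transcript had a median of 2662 against 3471 bases, and the median of the most exons in a transcript was 5 against 10. Genes spanning under 5000 bases made up 27.3% of the members and 9.63% of all genes, and genes of 3 exons or fewer 24.2% and 8.75%. Single-exon genes were 5.05% of the members and 1.08% of all genes. Over all genes, those under 5000 bases had median differences of 0.04, 0.03 and 0.05 under LPS and of -0.002, -0.002 and -0.02 under LPS+Dex (A, B, C), and 17.8% had all 6 above 0. Genes of 3 exons or fewer had medians of 0.03 to 0.10 over the 6 comparisons, and 20.2% had all 6 above 0, against 14.4% of genes with more exons. These class medians were small beside the members' median of 0.61. These are descriptions with no test.

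**Figure D5:**
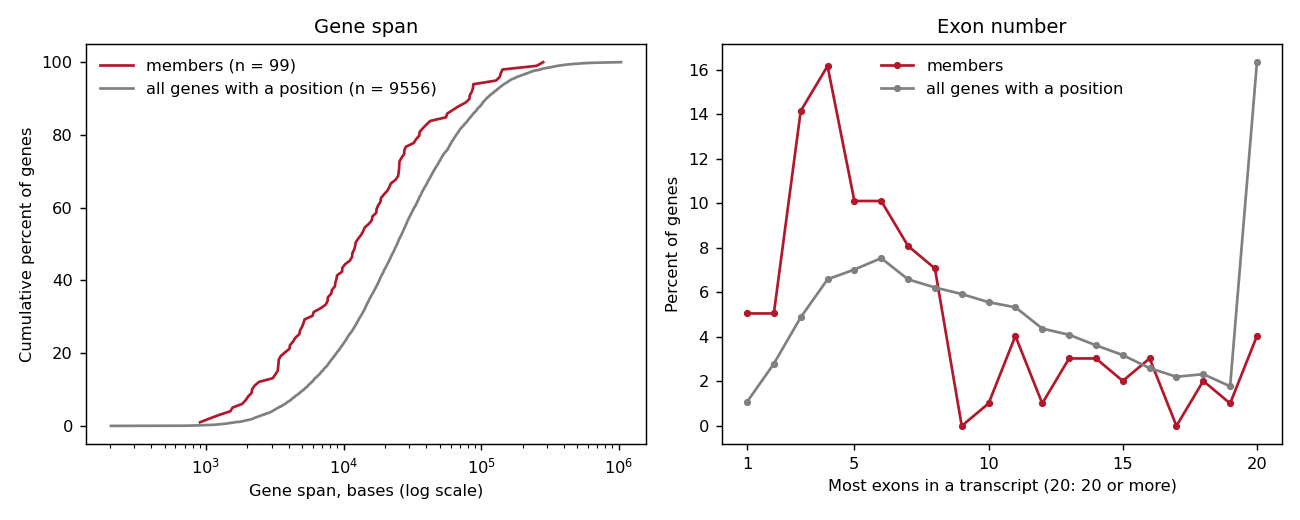
Cumulative percent of genes by gene span in bases on a log scale (left) and percent of genes by the most exons in an annotated transcript (right), for the 99 members with a position (red) and all 9556 such genes (grey). The members' curve lies to the left, with a median of 12264 against 24492 bases, and their exon numbers gather at 8 or fewer.

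Promoter windows from RefSeq (GRCm38.p6, 250 bases before to 50 bases after the start) with a single annotated start were found for 64 members and 6212 genes of the table. Their median GC content was 60.8% and 61.3%. TATAAA, the core of the TATA box, which binds the TATA-binding protein, occurred on either strand in 14.1% of the members' windows and 6.68% of all. In a window chosen after seeing the data, on the same strand and 20 to 40 bases before the start, it occurred in 5 members (7.81%) and in 1.16% of all genes. The GC box GGGCGG was in 73.4% and 68.5%, CCAAT in 43.8% and 39.3%, the E-box CACGTG in 10.94% and 10.99%, the AP-1 sites TGACTCA or TGAGTCA in 3.12% and 3.32%, the cyclic AMP response element TGACGTCA in 3.12% and 3.51% and the CArG box, a serum response factor site, in 3.12% (2 members) and 1.29%, on either strand. Apart from TATAAA and the CArG box these shares were near those of all promoters. The 2 members with a CArG box, Mknk2 and Rnd3, also held TATAAA. In Mknk2 the same bases, CCTATAAAGG, meet both patterns, so these 2 shares are not separate there.

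The 60 bases before the start of the 5 members with TATAAA at that distance are shown so that the motif can be seen in its place. They read 5′ to 3′ on the gene's strand with TATAAA in capitals, its first base lying 27 to 32 bases before the start, at chr11:116024505-116024564 (minus strand, H3f3b), chr10:80676294-80676353 (minus, Mknk2, a kinase gene downstream of MAP kinases), chr3:90669011-90669070 (plus, S100a8), chr3:108571639-108571698 (plus, Taf13, a subunit gene of the TFIID complex that binds this box) and chr2:51149112-51149171 (minus, Rnd3).
H3f3b: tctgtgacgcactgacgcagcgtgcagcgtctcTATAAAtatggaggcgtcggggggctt
Mknk2: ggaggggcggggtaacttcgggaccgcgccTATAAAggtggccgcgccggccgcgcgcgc
S100a8: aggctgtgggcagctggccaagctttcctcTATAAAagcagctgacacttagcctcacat
Taf13: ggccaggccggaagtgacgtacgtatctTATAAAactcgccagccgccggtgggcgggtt
Rnd3: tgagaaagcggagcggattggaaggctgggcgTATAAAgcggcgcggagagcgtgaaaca

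Of these 5, H3f3b, Mknk2 and S100a8 were among the 16 highest scores, and Rnd3 was the only 1 past the LPS test. Mknk2 was 7.67, 7.38 and 7.43 in WT and 8.45, 8.04 and 8.39 in KO under LPS, and Taf13 4.20, 4.03 and 3.77 in WT and 4.67, 4.56 and 4.47 in KO, in both genes with no overlap between genotypes. A match of letters in these windows is a description and was not tested as a binding site.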

How the data were processed

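Gene expression was measured by RNA-seq (polyA TruSeq libraries, paired 50-bp reads) in 16 BMDM libraries. The authors mapped reads to mm10 and counted uniquely mapped exonic reads with CLC Bio Genomic Workbench, scaled them in edgeR and deposited log2 CPM for 9614 genes, and their processing notes name CASAVA 1.8 and FastQC. The deposited p-value and FDR columns hold the authors' own comparisons and were not used. Whether counting used strand is not given in the sources used here, so overlapping and antisense genes (Zeb2os) and near copies (Lyz2, the histone genes, Ftl1 and its copy Gm10116) are uncertain.

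Reads were recovered from the steps of the log2 CPM values in genes under 3 CPM, which numbered 96 to 282 per library. Of these low values 100% came out whole, within 0.1 reads. Higher values were not used for this, so the depth of 25029253 to 49732927 reads per library is an estimate. The members and the gene lists were chosen with earlier results of these data known. The gene symbols are those of the table, and 99 of 100 members (all but Tob2_1) were matched to GENCODE vM21. Tests were limma 3.58.1 (R 4.3.3) on log2 CPM as deposited, over the whole table, with genotype as covariate and Benjamini-Hochberg adjustment. Mouse numbers in the labels mark the same animal across treatments, and deviations from the group mean correlated at 0.781 to 0.939 between LPS and LPS+Dex, 0.185 to 0.822 between untreated and LPS, and 0.351 to 0.76 between WT and KO of a pair, so fits with mouse (for the untreated comparison, pair) as a block were run beside them. Mice are the replicates. The fits were tested on simulated data. Named genes were Nelfb, the 12 highest scores, members in the gene lists (the first 20 by score, since over 40 genes qualified), the 4 largest changes called per comparison (untreated, among members whose libraries do not overlap) and those at the threshold, and others were named after their values were seen. Results of some named genes are not reported here.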

Additional observations from a re-analysis of the deposited data

Results flagged for a closer look

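Arg1 was the only member whose Dex change went one way in all WT mice and the other way in all KO mice. It fell by a mean of 0.28 on the log2 scale in WT and rose by 0.39 in KO, a difference of 0.67, with changes of -0.41, -0.29 and -0.15 in WT A, B and C and of 0.14, 0.90 and 0.14 in KO A, B and C. The KO mean rests mainly on mouse B. By the limma interaction test, which uses the libraries that chose the members, the difference had an FDR of 1. The pattern was met by 283 of all 9614 genes (2.94%). Groups here hold 2 or 3 libraries, so no group was screened for an outlying library.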

How the results depend on the processing

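With the mean of the 6 differences in place of the smallest, 60 of the 100 members were kept, and with the lowest KO minus the highest WT library 55 were. Leaving out a pair of mice kept 48 (pair B) to 74, and the other settings of the rule kept 97 to 100. In untreated BMDM, 0 members were called, and 1 was with pair as a block, 1 in a single fit of all 16 libraries and 9 at an unadjusted p under 0.05 with the same fold. Leaving out 1 untreated library gave 0 to 33 members higher and 0 to 13 lower, and a median of 0.40 to 0.51, the extremes coming without WT B, when only the library of WT A, which stood apart, represented WT and was assumed to vary like KO. With LPS, members that fell numbered 3, and 1 with mouse as a block, 5 with that block and no untreated WT A, and 2 to 4 leaving out a library, while 14 to 20 rose. With Dex, members that rose numbered 17, 10 in the single fit of all libraries and 13 to 16 leaving out a library, and members that fell 3, 5 with mouse as a block and 3 to 4 leaving out a library. No member passed the interaction test under any setting run. Of 39 single-gene calls none changed sign, and 15 missed the threshold under at least 1 setting, Dnajb9 (12 settings), Rbm38 (10), Cpeb2 and Prdx6 (9 each), Jun with Dex (6), Sdc4 with Dex (5) and Osgin1 (4) under several. Among members, the fewest reads in a library were 0 for 4933433C11Rik, 5 for Arc, 22 for Ddit4 and 34 for Prrx1, so counting error weighs most on these.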
